A study of Mus musculus with 45 samples.

Results

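The mucins and goblet cell genes described here are 10 genes, taken by name from the 47729 genes of the tables. The membrane mucins are Muc1, Muc3 and Muc13. The secreted goblet cell products are Muc2, Tff3, Agr2, Fcgbp, Clca1, Zg16 and Retnlb. They were measured in RNA of cells sorted for tuft cells from the small intestine of single mice, with 1 library per mouse and 45 libraries in all. Male C57BL/6J mice, housed 4 to a cage at 30 °C, began at 6 weeks of age to eat either a reference fat diet (RFD, 10% fat) or a high fat diet (HFD, 60% fat). The set called STF was fed for 9 weeks (11 libraries on RFD and 11 on HFD) and the set called LTF for 22 weeks (11 on RFD and 12 on HFD). The labels state 9 weeks for both sets, and the 22 weeks of the LTF set come from the methods of the study. All groups are of the same strain. The methods of the study give the sorted cells as EpCAM+ CD45+ Siglec-F+, a gate used to enrich for tuft cells. The same methods also state that cells with CD45 were excluded, to leave out M cells, which carry Siglec-F too. Its results name tuft cells as EpCAM+ Siglec-F+ without CD45, so the part of CD45 in the gate is unclear. By the methods of the study, the mice of a set were ended on consecutive days, with 1 cage of every group on each. Cages and days are not given in the labels, so that mice of 1 cage cannot be recognised and p-values treat all mice as independent.

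The intestinal surface is covered by 2 kinds of mucin. Secreted mucins, of which Muc2 is the main one in the intestine, are made in goblet cells, joined into large networks and released as mucus. Other goblet cell products travel with them: Tff3 is a trefoil peptide that helps epithelial repair, Agr2 is a disulphide isomerase of the endoplasmic reticulum needed for Muc2 processing, Fcgbp and Clca1 are mucus proteins, Zg16 is a lectin that binds Gram-positive bacteria, and Retnlb is an antibacterial protein induced in type 2 immune responses. Membrane mucins stay anchored in the apical membrane and form the glycocalyx. Muc3 and Muc13 are typical of the brush border of intestinal epithelial cells, and Muc1 is found on many epithelia. Tuft cells are chemosensory cells of the same epithelium and arise from the same stem cells as goblet cells.

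RefSeq promoter windows on GRCm38.p6, from 250 bases before to 50 bases after a gene's start, were at hand for 6 of the 10 genes, namely Muc1, Muc3, Muc13, Muc2, Agr2 and Fcgbp. Those of Muc3 and Muc13, the membrane mucins that were tested, and of Muc2 and Fcgbp, which are secreted products that varied together between libraries, are shown 5′ to 3′ on the strand of the gene. Capitals mark matches to the motifs searched on both strands.
Muc3, chr5:137165997-137166296, minus strand: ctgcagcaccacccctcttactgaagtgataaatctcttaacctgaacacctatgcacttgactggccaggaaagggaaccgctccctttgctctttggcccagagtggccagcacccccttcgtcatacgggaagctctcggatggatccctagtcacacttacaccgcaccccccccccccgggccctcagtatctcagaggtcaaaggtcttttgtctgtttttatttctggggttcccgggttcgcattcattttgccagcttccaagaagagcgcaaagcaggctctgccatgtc
Muc13, start within the gene, chr16:33794239-33794538, plus strand: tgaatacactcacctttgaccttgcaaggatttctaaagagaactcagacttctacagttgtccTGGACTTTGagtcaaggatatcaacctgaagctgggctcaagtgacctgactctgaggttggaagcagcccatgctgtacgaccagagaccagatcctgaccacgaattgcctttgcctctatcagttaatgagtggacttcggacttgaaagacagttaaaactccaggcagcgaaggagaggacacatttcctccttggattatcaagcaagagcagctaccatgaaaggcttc
Muc2, chr7:141690090-141690389, plus strand: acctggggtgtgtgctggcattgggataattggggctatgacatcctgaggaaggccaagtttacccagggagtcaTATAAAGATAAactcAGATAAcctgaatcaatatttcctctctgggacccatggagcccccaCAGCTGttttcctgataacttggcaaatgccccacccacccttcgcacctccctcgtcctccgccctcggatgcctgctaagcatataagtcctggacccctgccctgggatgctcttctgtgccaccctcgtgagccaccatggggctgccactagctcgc
Fcgbp, chr7:28070986-28071285, plus strand: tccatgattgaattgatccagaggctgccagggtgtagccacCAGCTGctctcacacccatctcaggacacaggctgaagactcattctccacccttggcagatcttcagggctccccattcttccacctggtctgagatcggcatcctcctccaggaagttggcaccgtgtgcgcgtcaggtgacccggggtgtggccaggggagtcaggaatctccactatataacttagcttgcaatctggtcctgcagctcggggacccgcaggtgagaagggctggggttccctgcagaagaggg

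The motifs were a TATA box (TATAAA, in 13.6% of 32851 windows), a GATA motif (AGATAA, 11.2%), a CDX motif (TTTATG, 11.9%), an HNF4 motif (CAAAGTCCA, 0.475%), an E-box of the kind bound by ATOH1 (CAGCTG, 16.3%) and an ETS motif (CCGGAAGT, 3.89%). In the Muc2 window the TATA box lay at -174 to -169 from the start, a GATA motif at -169 to -164 shared 1 base with it, a second GATA motif lay at -159 to -154 and the E-box at -112 to -107. The Fcgbp window held the E-box at -208 to -203. The Muc13 window shown held the HNF4 motif at -186 to -178 on the opposite strand, and its start lies 452 bases into the gene. The other Muc13 window, chr16:33793787-33794086 at the start of the gene in GENCODE M21, held a CDX motif at -180 to -175 and no HNF4 motif. None of these letters was found in the Muc3 window. These matches describe the sequence and are not shown to be sites. In GENCODE M21 Muc3 ends at position 137149322, which is 16724 bases short of the RefSeq start used for this window.

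Each library held between 189340 and 4690213 reads on genes. Counts were normalized with TMM and are given as CPM, the reads of a gene scaled to a common library size, and TPM, which also corrects for gene length, is used where genes are compared with each other. The diets were compared in each set with edgeR's quasi-likelihood test across 14020 genes, with Benjamini-Hochberg adjustment and an adjusted p under 0.1 as the threshold. The tuft genes Dclk1 and Trpm5 were above 0 in all 45 libraries, but Dclk1 ranged from 5.55 to 1675 TPM. The enterocyte gene Fabp1 ranged from 1390.2 to 38888 TPM and the Paneth cell gene Lyz1 from 3.44 to 39131 TPM, whereas Gp2 of M cells was listed at 0 in 37 libraries. Ptprc, the gene of CD45, was above 0 in all 45 libraries, with a median of 66.8 TPM (0.09 to 169). The part of CD45 in the gate was not tested. The summed TPM of 20 tuft markers was under 1000 in 3 libraries, HFD mice 50 and 80 at 9 weeks and HFD mouse 6 at 22 weeks. The mouse numbers of the labels form 3 series, the numbers 1 to 8, the multiples of 10 and other numbers from 21 to 64, and differences within them are given in this order as a check for a batch. RFD mouse 84 and HFD mouse 65 belong to none of them. The labels do not say whether a series is a cage or a day of the study. A difference between series thus cannot be told apart from one between cages or days.

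By TPM, Tff3 and Zg16 were the most abundant of the 10 genes in these tuft-enriched libraries, and the membrane mucin Muc13 stood above Fcgbp, Muc2 and Clca1. Over the 45 libraries Tff3 had the highest median, 1096 TPM (54.1 to 3002). It was followed by Zg16 with 779 TPM (2.90 to 4982) and Agr2 with 381 TPM (0 to 1686). Muc13 came next, with 336 TPM (47.4 to 633), as the most abundant membrane mucin. Below it were Fcgbp with 117 TPM (0 to 536), Muc2 with 94.7 TPM (0.94 to 287.9), Muc3 with 48.3 TPM (2.47 to 130.2) and Clca1 with 33.5 TPM (0 to 125.8). The order of neighbours was loose, since Tff3 was above Zg16 in 28 of 45 libraries, Agr2 above Muc13 in 26, Fcgbp above Muc2 in 25 and Muc3 above Clca1 in 25. It was firmer between Muc13 and Fcgbp (37 of 45) and between Muc2 and Muc3 (35 of 45). Set per length, Muc2, the structural mucin, had a lower median than the small secreted proteins Tff3 and Zg16.

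Muc1 and Retnlb were close to absent. Muc1 (chromosome 3, 89229057 to 89233381) had a read in 13 of 45 libraries with 38 reads in RFD mouse 21 at 9 weeks and at most 3 in any other. Retnlb (chromosome 16, 48816856 to 48818892) had a read in 10 libraries and at most 8 reads, in RFD mouse 10 at 22 weeks. The 3 reads that a count of 0 still allows amount to between 0.64 and 15.8 CPM in the libraries at 0. For these limits alone, CPM was scaled by the total reads on genes of each library, without TMM. Neither gene had more than 5 reads in at least 6 libraries, and neither was tested. The 8 genes that were tested are 2 of the 3 membrane mucins and 6 of the 7 secreted products.

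**Figure D1:**
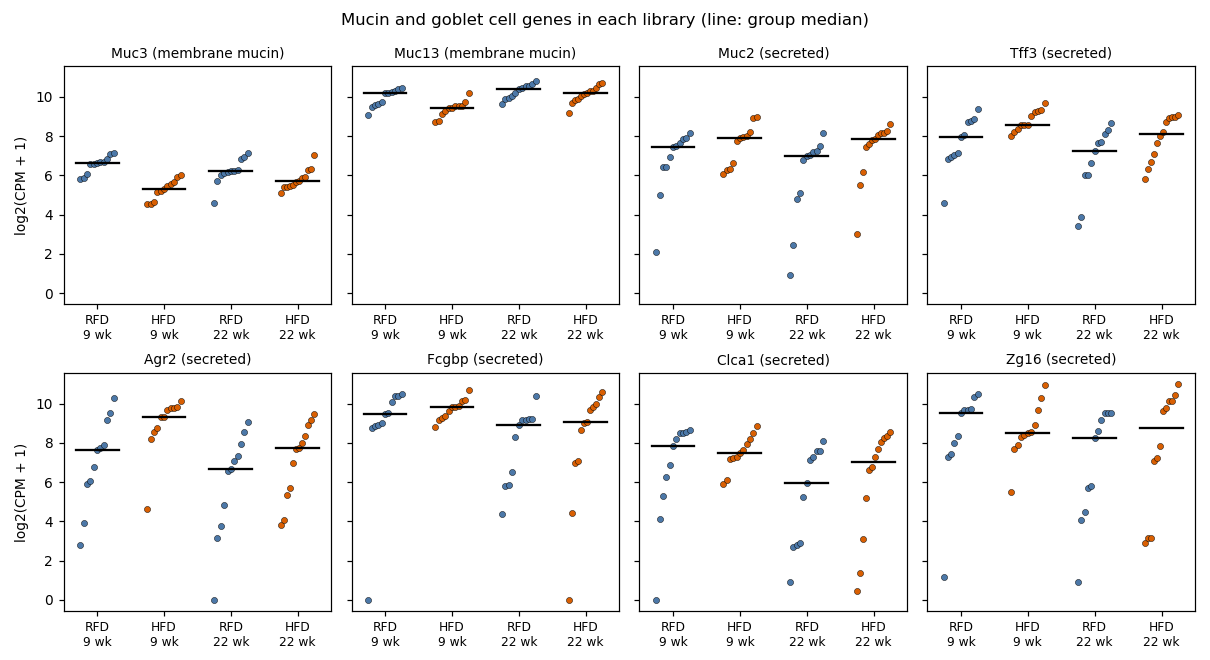
Each point is 1 library, with log2(CPM + 1) on the vertical axis and the 4 groups of diet and feeding time on the horizontal axis (RFD blue, HFD orange, black line the group median). Muc3 and Muc13 lay in narrow bands, with Muc3 lower on HFD at 9 weeks, whereas the 6 secreted products spread more widely within groups, Tff3 the least of them.

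Muc3 was the 1 member called at 9 weeks, and it was lower on HFD. It is a large membrane mucin on chromosome 5 from 137134922 to 137149322 (minus strand). On RFD its lowest, median and highest values were 54.99, 99.5 and 137.3 CPM, and on HFD they were 21.9, 37.9 and 63.8 CPM. All 11 mice on HFD lay below the RFD median, 9 of them below every mouse on RFD, and the groups overlapped only in the remaining libraries. The mean was 95.8 ± 27.4 CPM with RFD and 39.7 ± 14.03 CPM with HFD (SD, 11 mice each), and Muc3 fell to 0.42 times its RFD level (log2 fold change -1.25, SE 0.22, adjusted p = 0.0104 with edgeR). Among all genes tested 3.32% were called at 9 weeks, with 2% called higher and 1.33% called lower on HFD. Fewer cells that express a gene and less of its RNA in each cell cannot be told apart in such bulk samples.

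The lower Muc3 was present in each series of mouse numbers, with differences in mean log2 CPM of -1.02 (3 RFD against 4 HFD libraries), -1.45 (3 against 4) and -1.14 (4 against 3). Each of the 22 fits that left out 1 library kept the call, with log2 fold changes from -1.35 to -1.19. Without HFD mice 50 and 80, whose tuft markers were low, the log2 ratio of HFD to RFD was -1.27 (adjusted p = 0.0161 with edgeR). On TPM the values were 21.4, 51.1 and 103 on RFD and 2.47, 27.85 and 34.7 on HFD, and limma on log2(TPM + 1) gave -1.39 without a call (adjusted p = 0.200). RSEM divides reads between genes of similar sequence, and Muc3a lies close by on chromosome 5, so that some reads of the 2 genes may have been exchanged.

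At 22 weeks Muc3 was not called. Its lowest, median and highest values were 22.7, 74.4 and 140.3 CPM on RFD and 33.6, 51.1 and 128.6 CPM on HFD. The ranges overlapped almost fully, and 9 of 12 HFD mice lay under the median of RFD. The log2 ratio of HFD to RFD was -0.43 (SE 0.25, adjusted p = 0.568 with edgeR, n = 11 and 12), and within the series it was -0.08, -0.06 and -0.93, so that the largest was among the other numbers from 21 to 64. The difference between the diet effects of the sets was 0.85 on the log2 scale (SE 0.33, p = 0.0133 and adjusted p = 1.00 for the interaction with edgeR), which does not pass the threshold. Of all genes 3.22% had an interaction p under 0.05 and 0% were called. A difference between 9 and 22 weeks cannot be told apart from one between the 2 sets of libraries.

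**Figure D2:**
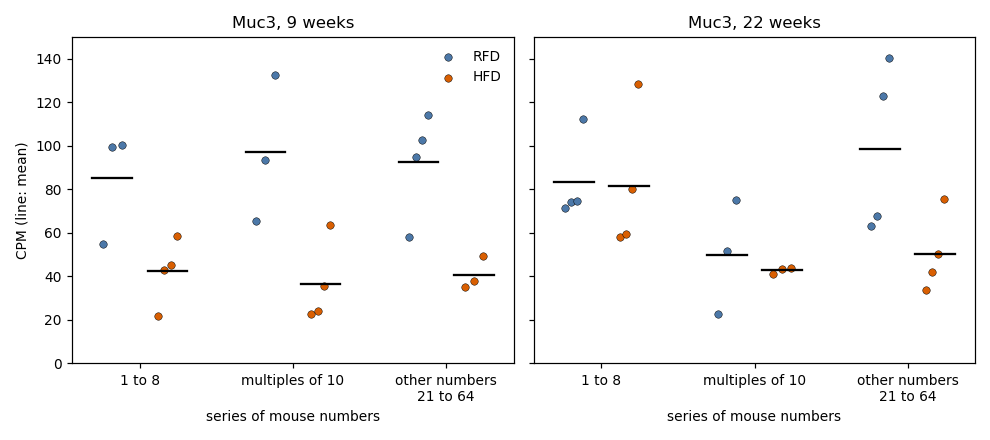
Muc3 in CPM (vertical axis) for each library, by series of mouse numbers (horizontal axis), with RFD in blue, HFD in orange and the mean as a line, at 9 weeks (left) and 22 weeks (right). At 9 weeks the HFD mean was below the RFD mean in all 3 series, and at 22 weeks the gap was widest among the other numbers (RFD mouse 84 and HFD mouse 65 are not drawn).

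Muc13 gave the same direction with a smaller difference that did not pass the test. This membrane mucin (chromosome 16, 33794037 to 33819934), whose locus also holds the antisense gene Gm15657, was at least 70 reads deep in every library. At 9 weeks its lowest, median and highest values were 545, 1150.4 and 1390.4 CPM on RFD and 422, 687 and 1153 CPM on HFD. Of 11 HFD mice 10 lay under the median of RFD, yet the ranges overlapped widely. The log2 ratio of HFD to RFD was -0.52 (SE 0.20, adjusted p = 0.167 with edgeR), and its values within the series were -0.95, -0.09 and -0.28. DESeq2 called it (log2 fold change -0.56, adjusted p = 0.0218). After 22 weeks the medians were 1328 CPM with RFD and 1159.8 CPM with HFD (805.7 to 1790.1 and 578 to 1639 CPM), with a log2 ratio of HFD to RFD of -0.18 (SE 0.17, adjusted p = 0.776 with edgeR).

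The membrane mucins moved with different cell type markers between libraries. With group means subtracted, Spearman's rho over the 45 libraries was 0.63 between Muc13 and the mean of the 20 tuft markers and -0.10 between Muc13 and the 20 enterocyte markers. For Muc3 it was -0.08 with the tuft markers and 0.57 with the enterocyte markers. Muc3 and Muc13 themselves had a rho of -0.22. These values describe libraries that differ in depth and in cell content and carry no p. At 9 weeks the tuft list had a median log2 fold change of -0.88 and the enterocyte list of -0.53, against -0.05 for all genes tested. With the mean of the tuft markers as a covariate the Muc3 difference was -1.18 (adjusted p = 0.0490 with edgeR), and with that of the enterocyte markers it was -0.996 (adjusted p = 0.0275). For Muc13 the same fits gave -0.29 (adjusted p = 0.723) and -0.67 (adjusted p = 0.0876, which is a call).

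The secreted goblet products were not called in either set. With edgeR 0 of the 6 tested passed at 9 weeks and 0 of 6 at 22 weeks, where 0.792% of all genes were called. At an unadjusted p under 0.05 there was 1 at 9 weeks, Tff3, beside 18% of all genes, and 0 at 22 weeks, beside 10.3%. DESeq2 called none of them in either set and limma on log2(TPM + 1) none, whereas a rank test written after SAM-seq called Tff3 and Agr2 at 9 weeks (adjusted p = 0.0585 and 0.0863) and none at 22 weeks. That rank test called 1722 of the 14020 genes at 9 weeks, 1415 of them higher on HFD. Of the 6 log2 fold changes 5 were above 0 at 9 weeks (median 0.43) and 6 at 22 weeks (median 0.76), while the medians of all genes were -0.05 and -0.03. The differences between the diet effects of the sets ran from -0.32 for Agr2 to 1.12 for Zg16, and none was called (adjusted p = 1.00 for each with edgeR).

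Tff3 (chromosome 17, 31125306 to 31129646) came nearest to a difference. At 9 weeks its lowest, median and highest values were 22.98, 247.7 and 661 CPM on RFD and 254, 383 and 814 CPM on HFD. All 11 mice on HFD were above the RFD median, but 1 alone was above every mouse on RFD. The log2 ratio of HFD to RFD was 0.81 (SE 0.37, p = 0.0345, adjusted p = 0.241 with edgeR). It would have been called without RFD mouse 20, the highest on RFD (log2 fold change 1.03, adjusted p = 0.0736 with edgeR). At 22 weeks the values were 9.64, 150.4 and 402 CPM on RFD and 55.3, 279 and 529 CPM on HFD, with a log2 ratio of HFD to RFD of 0.84 (SE 0.51, adjusted p = 0.605).

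Agr2 (chromosome 12, 35992907 to 36004087) showed the same picture with a wider spread. At 9 weeks it ranged from 6.03 to 1251 CPM on RFD (median 195.5) and from 24.04 to 1138 CPM on HFD (median 635), and 10 of 11 mice on HFD were above the RFD median. The groups nevertheless overlapped over nearly their whole range, and the log2 ratio of HFD to RFD was 1.05 (SE 0.68, adjusted p = 0.438 with edgeR). After 22 weeks the medians were 99.3 CPM with RFD and 211.8 CPM with HFD, with a log2 ratio of HFD to RFD of 0.70 (SE 0.77, adjusted p = 0.817). With the mean of the tuft markers as a covariate the Agr2 ratios were 0.38 at 9 weeks (adjusted p = 0.922 with edgeR) and 0.27 at 22 weeks (adjusted p = 0.975), and that of Tff3 at 9 weeks was 0.49 (adjusted p = 0.791).

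Muc2 (chromosome 7, 141690340 to 141754693) had 3.19, 174.7 and 282.9 CPM as its lowest, median and highest values on RFD at 9 weeks and 65.6, 240.1 and 500.5 CPM on HFD. Of 11 mice on HFD 7 were above the RFD median and 3 above every mouse on RFD. The log2 ratio of HFD to RFD was 0.64 (SE 0.47, adjusted p = 0.490 with edgeR). At 22 weeks the values were 0.88, 126.6 and 288.9 CPM on RFD and 7.07, 225.7 and 390.5 CPM on HFD, and the log2 ratio of HFD to RFD was 0.90 (SE 0.60, adjusted p = 0.651). The ranges overlapped in both sets, with 3 HFD libraries above every RFD library in each.

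Fcgbp, Clca1 and Zg16, the mucus proteins and the lectin, had estimates near 0 with wide errors at 9 weeks. Their log2 fold changes were 0.22 (SE 0.53), 0.02 (SE 0.62) and -0.10 (SE 0.65), with adjusted p values of 0.875, 0.992 and 0.958 with edgeR. The Zg16 median was 748 CPM on RFD and 356 CPM on HFD, and 8 of 11 HFD mice lay under the median of RFD, while the highest library of both groups, with 1949.9 CPM, was on HFD. Their log2 fold changes at 22 weeks were 0.52 (SE 0.78), 0.67 (SE 0.85) and 1.00 (SE 0.94), with adjusted p values of 0.873, 0.841 and 0.775. Zg16 then split the HFD group, since 6 of 12 mice exceeded every RFD mouse (highest 734 CPM) and 6 were below the RFD median of 301 CPM. Zg16 spans 127050156 to 127087328 on chromosome 7 in GENCODE M21 and overlaps Gm44939 on the other strand. The counting is not stated to use strand, so that reads of the 2 genes cannot be told apart.

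**Figure D3:**
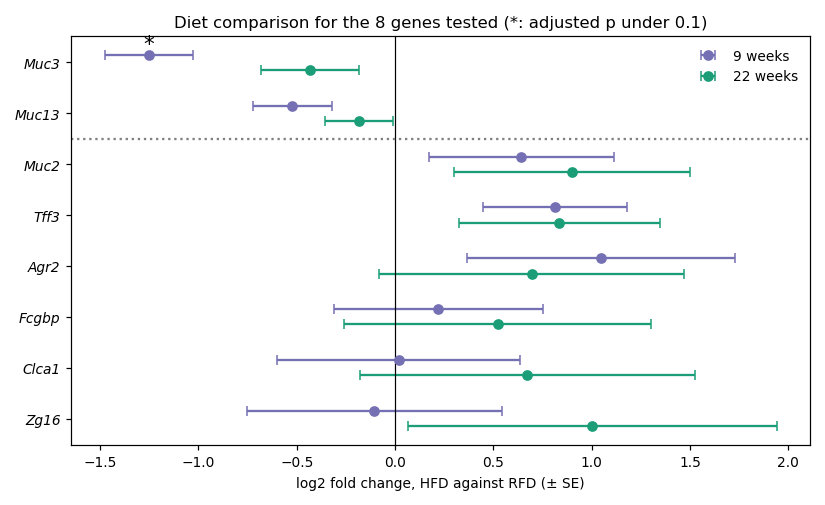
Log2 fold change of HFD against RFD with its SE (horizontal axis) for the 8 genes tested (vertical axis), at 9 weeks (purple) and 22 weeks (green). The dotted line parts the membrane mucins, all below 0, from the secreted products, and the asterisk marks Muc3 at 9 weeks (-1.25), the 1 call.

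The values of the secreted products differed between the series of mouse numbers. Among the LTF mice the multiples of 10 (3 libraries per diet) had differences below 0 for all 6 genes, from -4.13 for Fcgbp to -1.01 for Tff3 in mean log2 CPM. The other numbers from 21 to 64 (4 libraries per diet) had differences above 0 for all 6, from 1.88 for Agr2 to 4.71 for Zg16. The numbers 1 to 8 (4 per diet) lay between for all but Agr2 (1.91, the highest of the 3 series), and ran from -0.28 for Zg16 to 2.22 for Muc2. At 9 weeks these other numbers again gave 6 positive values, from 1.40 for Muc2 to 2.83 for Fcgbp. RFD mouse 21, 1 of the 4 RFD libraries of that series, had 0 reads of Fcgbp and Clca1 and 4 of Zg16. Its remaining RFD mice had 824, 252 and 169 CPM of Zg16, and its HFD mice 311, 43.8 and 1235 CPM. The multiples of 10 at 9 weeks ranged from -0.89 for Zg16 to 1.36 for Muc2. Among the multiples of 10 at 22 weeks, HFD mice 50 and 70 had 0 and 26 reads of Fcgbp. Means of so few libraries depend on such low values. With 3 or 4 libraries per diet no test was made within a series. With the series as a batch term, the log2 ratios of HFD to RFD at 22 weeks were 0.14 for Zg16, 0.025 for Clca1, 0.0023 for Fcgbp, 0.52 for Muc2, 0.34 for Agr2 and 0.61 for Tff3, and none was called with edgeR.

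The 6 secreted products were also among the most variable genes at their level of expression. The SD of log2 CPM within groups was 1.27 for Tff3, 1.74 for Muc2, 2.15 for Agr2, 2.37 for Fcgbp, 2.36 for Clca1 and 2.59 for Zg16. It exceeded that of at least 95.6% of the 500 genes nearest in mean level for each of them. The membrane mucins were not among the most variable, with an SD of 0.55 for Muc3 and 0.41 for Muc13. The medians of their nearest genes were 0.64 and 0.51, and the SDs exceeded those of 34.2% and 32.4% of these genes. On RFD the highest summed TPM of the 7 secreted products was 46.4 times the lowest at 9 weeks and 46.2 times at 22 weeks, while the sum of the membrane mucins spanned 4.24 and 2.02 times. On HFD at 22 weeks the secreted sum spanned 27.5 times and the membrane sum 3.96 times. On HFD at 9 weeks the order was the reverse, with 6.96 times for the secreted and 7.75 times for the membrane sum.

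The lowest sums rested on few reads. In RFD mouse 3 at 22 weeks there were 103 reads of Fcgbp, 11 of Tff3, 1 each of Muc2, Clca1 and Zg16, and 0 of Agr2, among 927740 reads. In RFD mouse 21 at 9 weeks there were 0 of Fcgbp and Clca1, 4 of Zg16, 10 of Muc2, 45 of Agr2 and 72 of Tff3 among 3446482 reads. Their tuft markers summed to 8992 TPM, where the median of the group was 18662, and to 18376 TPM, where it was 12828. The sum of the secreted products was under 500 TPM in 1 RFD library at 9 weeks, in 3 RFD libraries at 22 weeks and in 1 HFD library at 22 weeks. It was over 5000 TPM in 2 RFD and 3 HFD libraries at 9 weeks, and in 1 RFD and 5 HFD libraries at 22 weeks.

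**Figure D4:**
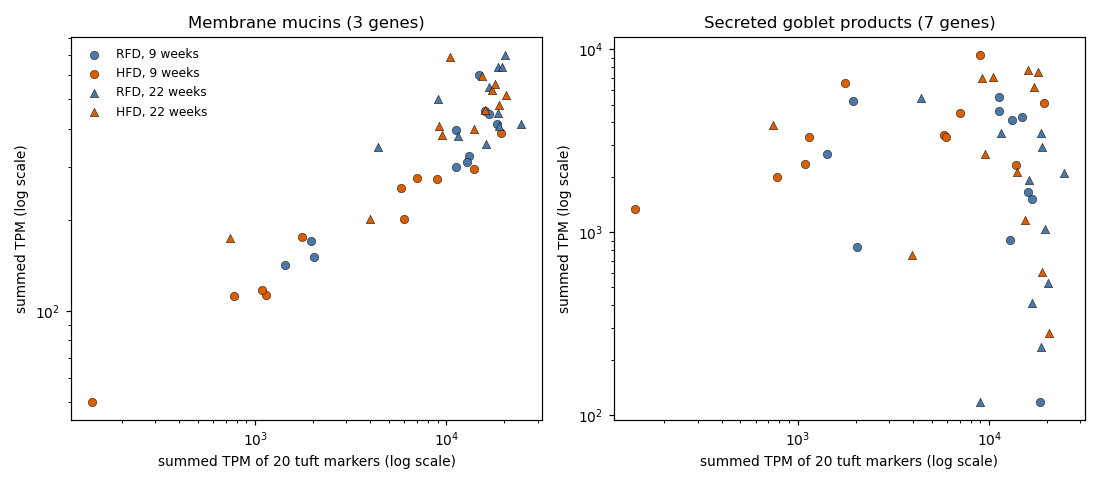
Summed TPM of the membrane mucins (left) and of the secreted products (right) against the summed TPM of 20 tuft markers in each library, both on log scales (RFD blue, HFD orange, circles 9 weeks, triangles 22 weeks). The membrane sum, mostly Muc13 (median 336 TPM, with 48.3 TPM for Muc3), was low where the tuft sum was low. On the same scale, in which all genes share 1 total, secreted sums from 118 to 9369 occurred among libraries with 8939.8 TPM of tuft markers or more. That limit is the tuft sum of HFD mouse 7 at 9 weeks, the library with the highest secreted sum. Libraries under it had secreted sums from 756 to 6566.

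Between libraries the secreted products varied together. With group means subtracted, the 15 pairs among the 6 genes had a median Spearman's rho of 0.68, from 0.56 to 0.94 over the 45 libraries. Clca1 and Zg16 formed the closest pair, with 0.94, and Clca1 with Fcgbp followed, with 0.86. Muc2 was the least tied, with 0.56 to 0.68. The 12 pairs of a membrane mucin with a secreted product had a median of -0.21, from -0.41 (Muc13 with Agr2) to -0.01 (Muc3 with Fcgbp). All these pairs come from the same libraries and share their depth and normalization.

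**Figure D5:**
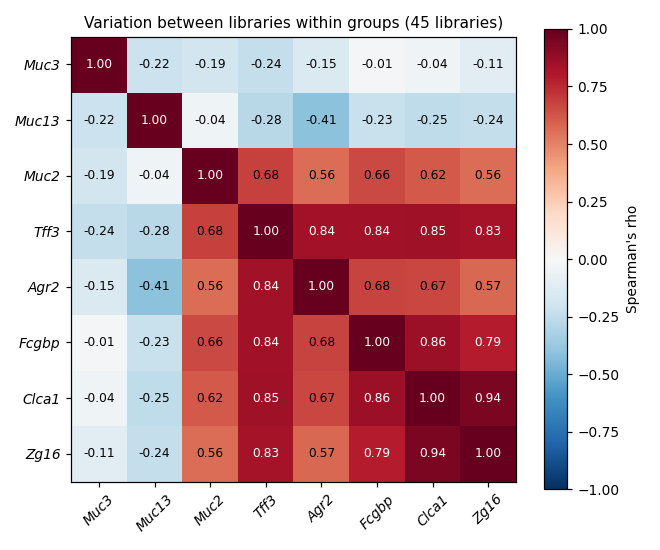
Spearman's rho between the 8 tested genes over 45 libraries, with log2 CPM after subtraction of group means (colour scale from -1 to 1, values printed in the cells). The 6 secreted products form a block of 0.56 to 0.94, and Muc3 and Muc13 stand outside it.

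The make-up of the secreted fraction varied from library to library, too. Tff3 held a median of 34.2% of the summed TPM of the 7 products on RFD and 38.0% on HFD at 9 weeks, and 37.6% and 41.7% at 22 weeks. Agr2 held 11.1% on RFD and 27.6% on HFD at 9 weeks (ranges 0.91% to 25.7% and 0.84% to 36.1%), and 11.99% and 16.2% at 22 weeks. For Zg16 the order of the diets was the reverse at 9 weeks, with 36.7% on RFD and 17.4% on HFD (2.54% to 55.3% and 4.50% to 58.2%), and had 35.7% and 33.6% at 22 weeks. Muc2 held from 2.77% to 4.27% in the 4 group medians. The ranges overlapped for each of these genes, and the shares were not tested.

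Agr2 varied closely with several marker lists. Its rho over the 45 libraries was 0.90 with the mean of 25 other goblet cell genes, 0.72 with 10 stem and cycling genes and 0.51 with 13 Paneth cell genes. For Zg16 the same values were 0.44, 0.34 and 0.00, and for Clca1 they were 0.51, 0.37 and 0.04. Tff3 stood between them, with 0.74, 0.54 and 0.30. With 8 goblet fate regulators, such as Spdef, Atoh1 and Foxa3, the values ran from 0.31 for Zg16 to 0.62 for Agr2, while Muc3 had -0.38.

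The genes most like Muc2 over the 45 libraries were Tff3 (rho 0.68), Fcgbp (0.66), ENSMUSG00000089788 (0.62), Clca1 (0.62), Dele1 (0.60), Creb3l4 (0.59), Ern2 (0.58), Cd9 (0.58), Bcl10 (0.56) and Thnsl2 (0.56). Of these 3 are secreted products of the list and 2, Creb3l4 and Ern2, are on the list of goblet fate regulators, Ern2 being an endoplasmic reticulum stress sensor of mucus-making cells. On log2(TPM + 1) 6 of the 10 were again among the first 10. The genes most like Muc3 were Slc5a4a (0.58), Apoa4 (0.57), Apoa1 (0.57), Gstm3 (0.56), Cyp4f14 (0.56), Mpp1 (0.56), Pcsk5 (0.54), Slc2a2 (0.54), Alpi (0.54) and Smim24 (0.53). Of these 4 are on the enterocyte list, among them the apolipoproteins Apoa1 and Apoa4 and the brush border phosphatase Alpi, but on log2(TPM + 1) only 1 of the 10 remained, so that the order for Muc3 depends on the scale.

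The wider goblet cell programme was described with 4 further lists. Of 28 other goblet cell genes 25 were tested, and 23 had a log2 fold change above 0 at 9 weeks (median 1.10), but 1 alone was called, Ramp1, a receptor activity modifying protein, with a mean of 6.02 ± 6.85 CPM with RFD and 27.7 ± 30.4 CPM with HFD (SD, 11 mice each, log2 fold change 2.16, SE 0.67, adjusted p = 0.0992 with edgeR). At an unadjusted p under 0.05 there were 9 of the 25, all higher on HFD, beside 18% of all genes. At 22 weeks 22 of 25 were above 0 (median 0.58) and 0 were called, with 1 higher and 1 lower at an unadjusted p under 0.05, beside 10.3% of all genes. Of 8 tested goblet fate regulators 6 and 7 were above 0 at the 2 times (medians 0.82 and 0.31) and 0 were called, with 3 and 0 at an unadjusted p under 0.05. Of 22 tested genes of mucin O-glycosylation, which build the sugar chains of mucins, 14 and 15 were above 0 (medians 0.32 and 0.13), with 3 higher and 3 lower at an unadjusted p under 0.05 at 9 weeks and 2 lower at 22 weeks. The 1 call was Galnt10, a transferase that starts such chains, with 5.71 ± 6.08 CPM with RFD and 17.8 ± 13.9 CPM with HFD at 9 weeks (log2 fold change 1.61, SE 0.50, adjusted p = 0.0971 with edgeR) and 11 of 11 mice on HFD above the RFD median. Of 13 other mucins 5 were tested and 0 were called, with medians of -0.87 and -0.20 and 0 and 1 at an unadjusted p under 0.05. With DESeq2 8 of the other goblet cell genes, 3 fate regulators and 1 glycosylation gene were called higher and 1 glycosylation gene lower at 9 weeks, and at 22 weeks 1 other goblet cell gene higher and 1 glycosylation gene lower. The rank test after SAM-seq called 10 other goblet cell genes, 3 fate regulators, 2 glycosylation genes and 1 other mucin higher at 9 weeks, and 1 other goblet cell gene higher at 22 weeks. Limma on log2(TPM + 1) called none of the 4 lists in either set. Of all 14020 genes, DESeq2 called 1534 at 9 weeks (832 higher on HFD) and 351 at 22 weeks (183 higher). The rank test called 1722 (1415 higher) and 429 (335 higher), and limma 9 and 51.

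Markers of other cell types are given by diet, and their counts are to be read against the genes tested, of which 3.32% were called at 9 weeks and 0.792% at 22 weeks, with 18% and 10.3% at an unadjusted p under 0.05. DESeq2 called 1534 of the 14020 genes at 9 weeks, 832 of them higher on HFD. At 9 weeks 12 of 13 Paneth cell genes had a log2 fold change above 0 (median 2.61), 4 of them at an unadjusted p under 0.05 and 0 called (6 with DESeq2), and their summed TPM had medians of 10900 on RFD (1326 to 243292) and 80720 on HFD (648 to 412005). All 10 stem and cycling genes were above 0 (median 1.22), 6 of them at an unadjusted p under 0.05. Of these 10 genes 2 were called, Olfm4 and Smoc2 (2.05 and 1.70), with 4 called by DESeq2 and 7 by the rank test. Of the 20 tuft markers 19 were below 0, with summed medians of 12828 TPM on RFD (1425 to 18376) and 5794 TPM on HFD (141 to 19266), and 0 were called (2 lower with DESeq2), with 6 at an unadjusted p under 0.05. At 22 weeks the medians were 1.26 for the Paneth list, 0.67 for the stem and cycling list and -0.38 for the tuft list. Of the 20 enterocyte markers 1 was called higher and 3 lower at 9 weeks, and 2 higher and 2 lower at 22 weeks. At an unadjusted p under 0.05 there were 3 higher and 8 lower at 9 weeks, and 4 higher and 6 lower at 22 weeks. Of 13 enteroendocrine genes 4 were called lower at 22 weeks and 0 at 9 weeks. All 13 were below 0 at 22 weeks (median -3.09), 10 of them at an unadjusted p under 0.05. Of the 6 T cell and 4 M cell genes tested none was called at either time. The part of these cells in the differences of the secreted products was not tested.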

How the data were processed

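Bulk RNA was measured with Smart-seq2 in sorted cells of 45 mice. Per the labels and the methods, the authors trimmed paired reads with Cutadapt 1.15, aligned them with STAR 2.6.0 to GRCm38 and counted them per gene with RSEM. The annotation release is not given in the sources used here. The deposited expected counts, taken before the authors' filter and cell type weighting, were used as rounded counts (8.79% of those above 0 were not whole). In the study, reads from contaminating cell types were weighted down. Marker genes of non-tuft cells, and other genes judged not to be expressed in tuft cells, were removed there. The methods do not state which of the genes described here were among those removed. The deposited TPM values were used for levels between genes and with limma. FPKM tables were not used, nor were 24 columns per kind of table that belong to no listed sample. No pair of libraries held identical values (0 pairs).

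Symbols and positions come from GENCODE M21, which is on GRCm38. Genes were kept where 6 or more of the 45 libraries held over 5 reads. The diets were compared with edgeR 4.0.16 in R 4.3.3 (TMM, quasi-likelihood fit with robust estimation), separately in STF (22 libraries) and LTF (23), and the interaction was fitted over all 45 libraries. P-values were adjusted by Benjamini-Hochberg over all 14020 genes. Alternatives used DESeq2 1.42.0, limma 3.58.1, a rank test written after SAM-seq, other filters, covariates and left-out libraries. The steps were tested on simulated data.

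The members and the gene lists were chosen with earlier results of these data known. All 10 members are named, together with, from each further list, the genes called in either set (at most 5 by smallest p), the 10 genes most like Muc2 and Muc3, and fixed cell type markers. Of the called genes of the enterocyte and enteroendocrine lists only the numbers are given. Intervals and limits for counts of 0 cover counting error only, since the reads carry no molecular identifiers.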

Additional observations from a re-analysis of the deposited data

How the results depend on the processing

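The call of Muc3 at 9 weeks was kept in 10 of 12 alternatives, with log2 fold changes from -1.46 to -0.996, and was lost with limma on TPM (adjusted p = 0.200 with a pseudocount of 1 and 0.278 with 0.1). At 22 weeks no member was called in any of the alternatives run. Membrane mucins called at 9 weeks numbered 2 with DESeq2 and with the enterocyte covariate (Muc13 added), 2 with no filter (Muc1 added, a gene not tested otherwise), and 0 with limma at either pseudocount. Nearly all Muc1 reads at 9 weeks were the 38 of RFD mouse 21. Secreted products called at 9 weeks numbered 1 with no filter (Tff3) and 2 with the rank test after SAM-seq. When each library was left out in turn, membrane mucins called at 9 weeks ranged from 1 to 2, with Muc13 added without HFD mouse 64, RFD mouse 20 or RFD mouse 40, and secreted products from 0 to 1, with Tff3 added without RFD mouse 20. At 22 weeks both stayed at 0. At 9 weeks these fits took Clca1 from -0.15 to 0.16 and Zg16 from -0.48 to 0.10.

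Signs turned for members that were far from a call. At 9 weeks Clca1 was -0.055 with low totals left out. Zg16 was 0.046 with the enterocyte covariate, and 0.17 and 0.14 with limma on log2(TPM + 0.1) and log2(TPM + 1). The rank test also gave Zg16 a positive sign. Its value of 0.39 takes the sign from the ranks and the size from the difference in mean log2(CPM + 1) without TMM. At 22 weeks Fcgbp was -0.35 and -0.081 with limma at these pseudocounts. Among the interactions, Muc2 was -0.054 with the series of mouse numbers as a batch, Tff3 was -0.048 without the libraries of low tuft markers (chosen after seeing the data) and -0.0059 with no filter, and Fcgbp was -0.96 and -0.40 with limma. The causes were not tested.

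The number of all genes called, 466 at 9 weeks, was 1534 with DESeq2, 1094 with the enterocyte covariate, 18 with the tuft covariate, 32 without the libraries of low tuft markers, 290 with low totals left out, 1698 with no filter, 1722 with the rank test, and 5 and 9 with limma. Leaving out 1 library gave 59 (without HFD mouse 6) to 1996 (without HFD mouse 64), and 17 of 22 such fits moved it by over 1.5 times. At 22 weeks 111 genes became 351 with DESeq2, 185 with the series as a batch term, 172 with the tuft covariate, 435 with no filter, 429 with the rank test, and 31 and 51 with limma. Leaving out 1 library gave 58 (without RFD mouse 10) to 667 (without RFD mouse 1), and 7 of 23 moved it by over 1.5 times. The shares of all genes called, against which the members were read, are thus unsteady. The interaction had 0 genes called, but 65 with no filter and 1 without robust estimation, which was added after seeing the data. Its median over all genes, 0.06, was 0.20 with limma on log2(TPM + 0.1) and -0.11 with the replicate block. No library at 22 weeks had a low total, so that alternative was not run there.

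No paired analysis was possible because the diets share no mouse number within a set. Between the sets 16 numbers recur, and 2 of 16 pairs had a correlation of deviations over 0.1 (median -0.16), so the numbers were not taken to pair the mice. With the mouse number as a replicate block no interaction was called either, and the estimates of Muc2, Tff3, Fcgbp, Clca1 and Zg16 turned to -0.23, -1.07, -1.92, -2.03 and -1.84.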
